A study of Mus musculus with 12 samples.

Results

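The adrenergic receptors are the receptors through which cells sense noradrenaline and adrenaline. The genes described here were Adra1a, Adra1b and Adra1d (alpha-1 receptors), Adra2a, Adra2b and Adra2c (alpha-2 receptors) and Adrb1 (the beta-1 receptor), found by their symbols in the gene column of each table. They were 7 of the 40438 gene names found in all 3 tables, and each stood on 1 row per table.

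The tissue was the prefrontal cortex of male C57BL/6 mice (C57BL/6 J in the methods) aged 10 weeks, given injections of saline or of cocaine at 20 mg/kg daily over 14 days. Tissue was taken either 2 h, 24 h or 7 d from the final dose, and with a saline and a cocaine group for each time there were 6 groups. A group had 2 RNA-seq libraries made from 5 pooled mice apiece (12 libraries, 60 mice). The deposited tables, 1 per time point, give a single expression value per group in FPKM, a count of sequenced fragments corrected for transcript length and for library size. That value pools both libraries, so no replicate spread, n or p value stands behind any difference given here, and the depth behind each value is unknown from the tables.

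The receptors belong to the G protein-coupled receptors. Alpha-1 receptors couple to Gq proteins, which activate phospholipase C and release calcium from internal stores. Alpha-2 receptors couple to Gi/o proteins, which lower cyclic AMP, and act both as autoreceptors on noradrenaline terminals and on the cells these terminals reach. Beta-1 receptors couple to Gs proteins, which raise cyclic AMP. In the prefrontal cortex the noradrenaline comes from axons of the locus coeruleus, a brainstem nucleus, and its receptors are best known for tuning attention and working memory. Cocaine blocks the noradrenaline transporter as well as those for dopamine and serotonin.

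In saline and cocaine mice alike the alpha-1 genes made up most of the receptor transcripts, and Adra1d was the most abundant of the 7 genes in every group. The 3 genes Adra2a, Adra2c and Adrb1 had a higher value in cocaine than in saline at all 3 times. So did 18.8% of the 13593 genes with a mean of at least 1 FPKM at all 3 times. Adra1b had a lower value in cocaine at all 3 times, and the share of all genes that did was not computed. The largest ratio among the genes above 1 FPKM was that of Adra2c at 2 h, 1.34-fold. A ratio larger than the span of the same gene over the 3 saline groups was found for 2 genes, Adra2c and Adra1d, both at 2 h. The share of all genes with such a ratio was not computed, so this count is not read as particular to the receptors.

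The promoter of Adra2c is shown because this gene had the largest ratio and its row starts at the same base as the RefSeq gene, so that the window lies before the transcribed region. The 250 bases before the start lie at chr5:35278316-35278565 on the plus strand of GRCm38.p6 and were taken from RefSeq. Capitals mark the only match to any of 5 motifs that were searched on both strands.
Adra2c: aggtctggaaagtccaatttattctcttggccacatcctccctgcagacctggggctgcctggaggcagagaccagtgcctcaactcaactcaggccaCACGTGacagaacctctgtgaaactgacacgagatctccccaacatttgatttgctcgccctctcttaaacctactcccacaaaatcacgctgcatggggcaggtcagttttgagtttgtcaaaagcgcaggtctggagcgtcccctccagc
The motifs were the cyclic AMP response element (TGACGTCA), its core (TGACG, which lies within the full element), AP-1 (TGANTCA), the E-box (CACGTG) and the EGR site (GCGNGGGCG). RefSeq windows were found for 5 of the 7 genes, namely Adra1b, Adra2a, Adra2b, Adra2c and Adrb1. The E-box of Adra2c spanned positions -152 to -147 from the start. An E-box stood in the window of Adra2a as well, at positions -80 to -75, beside a TGACG core at -69 to -65, and Adrb1 held a TGACG core at -90 to -86. Adra1b held an AP-1 match, at positions -198 to -192, in 1 of its windows, and Adra2b held none of the motifs. Of 32851 RefSeq windows of this length, 6.02% held an E-box, 17.8% the TGACG core, 6.75% an AP-1 match, 4.7% an EGR site and 1.55% the full cyclic AMP response element. These matches describe letters only, and some windows lie inside the loci of the tables: that of Adra2a and 1 of Adra1b, without a match, in all 3, and that of Adrb1 in those of 2 h and 24 h.

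Levels are compared between genes on the FPKM scale, which is per length of transcript. The tables of the time points were normalized separately, so levels set side by side across times are descriptions. The same holds for each span over the 3 saline values. Such a span mixes time, normalization and, for some genes, changed row boundaries, and it is not a replicate spread. Over the 6 groups Adra1d ran from 15.4 to 17.3 FPKM with a median of 16.3. Adra1b ran from 10.3 to 12.9 FPKM (median 11) and Adrb1 from 9.28 to 13.8 FPKM (median 11.2). Those ranges overlapped, so Adra1b and Adrb1 could not be ordered over all groups. Within the saline groups Adra1b was the higher of the pair at all 3 times, and within the cocaine groups Adrb1 was. Adra2c followed with 4.50 to 7.44 FPKM (median 5.38) and Adra2a with 2.87 to 4.41 FPKM (median 3.63), ranges that missed each other narrowly. Adra1a ran from 1.70 to 2.29 FPKM (median 2.05). Adra2b was at the foot of the order with 0.0611 to 0.0895 FPKM (median 0.0671), and it was the only gene of the 7 below a mean of 1 FPKM, which the other 6 genes reached at all 3 times.

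**Figure D1:**
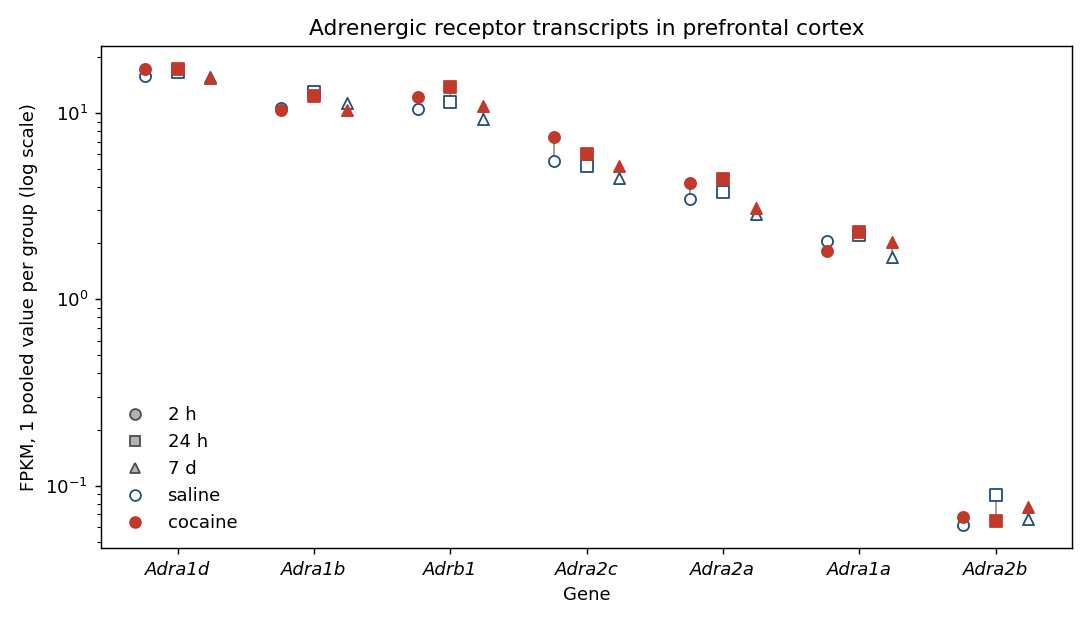
Expression of the 7 adrenergic receptor genes in FPKM on a log axis, with 1 pooled value per group; open blue symbols are saline, filled red symbols cocaine, and circles, squares and triangles are 2 h, 24 h and 7 d. Adra1d lay between 15.4 and 17.3 FPKM in every group and Adra2b between 0.0611 and 0.0895 FPKM; filled symbols lay above open ones at all 3 times for Adrb1, Adra2c and Adra2a.

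Adra2c encodes the alpha-2C receptor, which inhibits transmitter release at low rates of firing. Its row covered chr5:35278566-35281761 on GRCm38 in all 3 tables, and the RefSeq protein-coding gene runs from 35278566 to 35281763. It stood at 5.56 FPKM (saline) against 7.44 FPKM (cocaine) at 2 h, 5.20 against 6.00 at 24 h, and 4.50 against 5.19 at 7 d. Cocaine was above saline at each time, with ratios of 1.34, 1.15 and 1.15. On the log2 scale the differences were 0.42, 0.21 and 0.20. The 3 saline values spanned 0.30 on the same scale, less than the difference at 2 h and more than the other two. Among the 5263 genes with a mean FPKM within 2-fold of that of Adra2c at 2 h, 3.71% had a ratio as high or higher. The share was 11.0% at 24 h and 14.7% at 7 d.

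Adra2a encodes the alpha-2A receptor, the main alpha-2 autoreceptor and the subtype through which guanfacine acts in the prefrontal cortex. Its row covered chr19:54044802-54048983 at 2 h and 24 h and chr19:54044479-54048982 at 7 d, and no other RefSeq gene lay in it. It stood at 3.48 FPKM (saline) against 4.21 FPKM (cocaine) at 2 h, 3.77 against 4.41 at 24 h, and 2.87 against 3.10 at 7 d. The order of cocaine over saline was the same at each time, with ratios of 1.21, 1.17 and 1.08 (log2 differences of 0.28, 0.23 and 0.11). The saline values alone spanned 0.39 on the log2 scale, more than any of these differences. Of the genes within 2-fold of its mean, 13.7% at 2 h, 10.9% at 24 h and 33.7% at 7 d had a ratio as high or higher.

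Adra2b, the alpha-2B receptor gene (chr2:127363208-127367221), is known mainly from thalamus and blood vessels. It stood at 0.0611 FPKM (saline) against 0.0679 FPKM (cocaine) at 2 h, 0.0895 against 0.0647 at 24 h, and 0.0664 against 0.0767 at 7 d. The authors' status flag for the row was NOTEST in every table, which Cuffdiff gives to loci with too few fragments. Its ratio at 24 h, 0.723, was the farthest from 1 in the family below 1. With 1 FPKM added to both values the log2 difference of -0.47 came to -0.033, so no direction is read from it.

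Adrb1 encodes the beta-1 receptor, the main beta receptor of cortical neurons. It stood at 10.5 FPKM (saline) against 12.2 FPKM (cocaine) at 2 h, 11.5 against 13.8 at 24 h, and 9.28 against 10.9 at 7 d. Cocaine was above saline by a like amount each time, with ratios of 1.16, 1.20 and 1.17 (log2 differences of 0.22, 0.26 and 0.23). The 3 saline values spanned 0.31 on the log2 scale, so each difference was within that span. Of the genes within 2-fold of its mean, 12.4%, 4.26% and 7.83% had a ratio as high or higher at 2 h, 24 h and 7 d. Its row covered chr19:56720724-56765077 at 2 h and 24 h, a stretch that also holds Gm32718 (a long non-coding RNA) and Gm6990 (a pseudogene). At 7 d the row covered chr19:56722075-56737792, which holds neither, and the RefSeq gene is the stretch chr19:56722117-56725150.

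Adra1d encodes the alpha-1D receptor, which signals from cortical neurons and from vascular smooth muscle. It stood at 15.8 FPKM (saline) against 17.3 FPKM (cocaine) at 2 h, 16.7 against 17.2 at 24 h, and 15.5 against 15.4 at 7 d. Cocaine was above saline by 0.13 on the log2 scale at 2 h and by 0.045 at 24 h. At 7 d the difference was -0.013, which became 0.061 once the trend of the ratios over transcript length was taken out, so its direction there depended on the processing. The difference at 2 h was a little above the span of 0.10 over the saline values. Of the genes within 2-fold of its mean, 22.7%, 38.7% and 48.5% had a ratio as high or higher at 2 h, 24 h and 7 d. Its row (chr2:131540202-131564401 at 2 h and 24 h) also holds the non-coding genes Gm14285 and Gm39938.

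Adra1b encodes the alpha-1B receptor, a postsynaptic receptor of cortical neurons. Its row covered chr11:43774606-43901210 in all 3 tables. It stood at 10.6 FPKM (saline) against 10.3 FPKM (cocaine) at 2 h, 12.9 against 12.4 at 24 h, and 11.3 against 10.3 at 7 d. Cocaine was below saline at each time, by little: the log2 differences were -0.036, -0.061 and -0.13, against a span of 0.28 over the saline values.

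Adra1a, the alpha-1A receptor gene (chr14:66635046-66770736 at 2 h and 24 h, chr14:66635251-66740089 at 7 d), had no steady direction. It stood at 2.05 FPKM (saline) against 1.82 FPKM (cocaine) at 2 h, 2.22 against 2.29 at 24 h, and 1.70 against 2.04 at 7 d. Cocaine was below saline at 2 h (log2 difference -0.17), close to it at 24 h (0.045) and above it at 7 d (0.27). The saline values spanned 0.39. The 2 h row carried the status flag FAIL, which Cuffdiff sets where its fit of a locus did not complete.

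Counted by size, 1 of the 6 genes above 1 FPKM, Adra2c, was at least 25% higher in cocaine at 2 h, where 7.5% of 13974 genes were. At 24 h and 7 d none of the 6 was, against 4.29% of 14174 and 5.7% of 14061 genes. None was at least 20% lower in cocaine at any time, against 5.64%, 3.92% and 8.24% of all genes at 2 h, 24 h and 7 d. A single gene of 6 is too few to be read against these shares. Cocaine was above saline in 4 of the 6 genes at 2 h, 5 at 24 h and 4 at 7 d, beside 56.4%, 53.2% and 47.3% of all genes. The median log2 difference of the 6 was 0.17, 0.13 and 0.16, and that of all genes was 0.024, 0.0087 and -0.012.

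Adra2a, Adra2c and Adrb1 were the 3 genes of the 6 with a higher value in cocaine at all 3 times, as 18.8% of 13593 genes were. Adra2c and Adrb1 were at least 10% higher at all 3 times, 2 of 6 genes, against 2.42% of the same 13593; this count over the 3 times was chosen after the values were seen. The 3 tables come from different mice, with their own saline group each. No ratio of the 7 genes changed sign when the median of all genes was subtracted, but these medians were small. Adra1d at 7 d came to -0.0006, from which no direction is read.

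**Figure D2:**
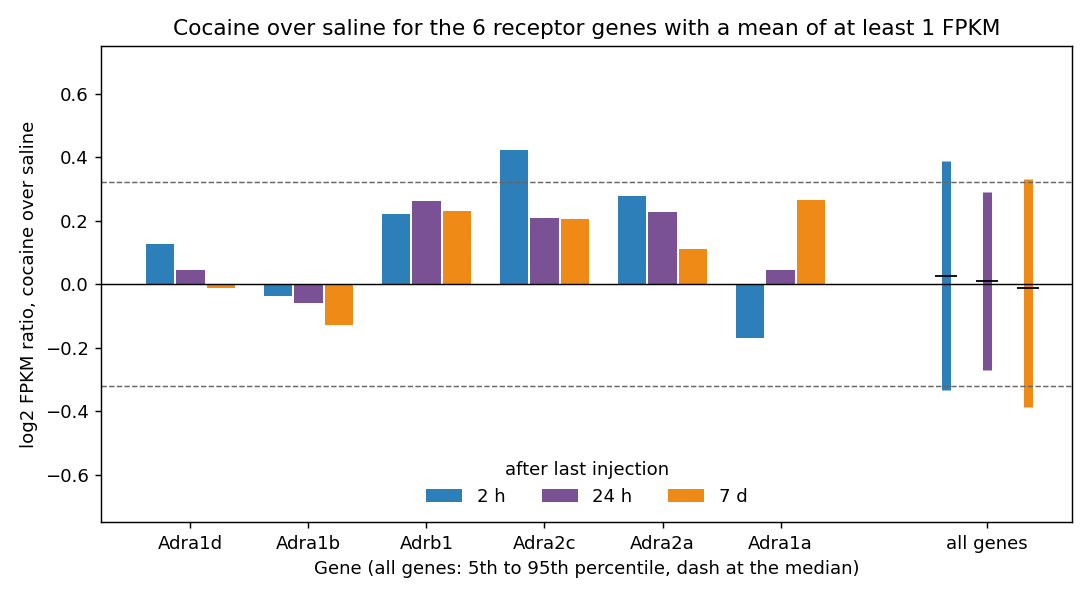
The log2 ratio of FPKM, cocaine over saline, for the 6 receptor genes with a mean of at least 1 FPKM, as bars for 2 h, 24 h and 7 d; the thin vertical bars at the right run from the 5th to the 95th percentile of all genes with a dash at the median, and dashed lines mark 25% higher and 20% lower. The 2 h bar of Adra2c, at 0.42, is the only bar past a dashed line, and the bars of Adrb1 lie between 0.22 and 0.26.

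Grouped by subtype, the alpha-2 transcripts summed to 9.10 FPKM (saline) against 11.7 FPKM (cocaine) at 2 h, 9.06 against 10.5 at 24 h, and 7.44 against 8.36 at 7 d. Those sums were 1.29-fold, 1.16-fold and 1.12-fold higher in cocaine. The alpha-1 transcripts summed to 28.5 against 29.5 FPKM at 2 h, 31.8 against 31.9 at 24 h, and 28.5 against 27.8 at 7 d, ratios of 1.03, 1.0 and 0.974. The alpha-2 sum per alpha-1 sum was thus 0.319 (saline) against 0.398 (cocaine) at 2 h, 0.285 against 0.329 at 24 h, and 0.261 against 0.301 at 7 d. Alpha-1 transcripts took 59.3% of the summed receptor FPKM against 55.2% under cocaine at 2 h, 60.7% against 56.8% at 24 h, and 63.1% against 59.1% at 7 d. In bulk tissue such as this, fewer cells of a type and less RNA per cell cannot be told apart.

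The genes that make, store, take up and break down noradrenaline, and those of the receptors' signalling arms, were read from a list of 53 genes, of which 45, 45 and 46 reached a mean of 1 FPKM at 2 h, 24 h and 7 d. At 2 h 2 of them were at least 25% higher in cocaine and none was at least 20% lower, or 4.44% of the 45. At 24 h 1 was lower and at 7 d 2 were lower, and none was higher at either time. At 7 d 1 of the 2 was a higher gene once the table median was subtracted (Adcy1, 0.33) or the length trend taken out (Slc29a4, 0.33). These shares lie near or under those of all genes. Their median log2 difference was 0.078, -0.0020 and 0.071.

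The genes past these sizes were Rgs2, Adcy9 and Ddc. Rgs2, a brake on Gq signalling, stood at 13.7 FPKM (saline) against 17.4 FPKM (cocaine) at 2 h, 12.9 against 14.7 at 24 h, and 15.9 against 12.7 at 7 d. It was thus higher in cocaine at 2 h and lower at 7 d, where the log2 difference of -0.33 lay close to the limit and came to -0.31 when the median was subtracted. Adcy9, an adenylyl cyclase, stood at 9.17 FPKM (saline) against 12.3 FPKM (cocaine) at 2 h, 8.63 against 9.11 at 24 h, and 6.81 against 7.86 at 7 d, above saline each time. Ddc, the decarboxylase that makes dopamine from L-DOPA, stood at 2.13 FPKM (saline) against 2.65 FPKM (cocaine) at 2 h, 2.71 against 2.13 at 24 h, and 2.58 against 1.81 at 7 d.

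By list, of the 7 noradrenaline handling genes above 1 FPKM, 5, 2 and 3 were above saline at the 3 times in order. In the Gq arm it was 6, 4 and 5 of 8 genes, in the Gi/o arm 9, 5 and 6 of 10, and in the Gs arm 11 of 14, 10 of 14 and 10 of 15. The shares of all genes above saline were 56.4%, 53.2% and 47.3%. Among the receptor kinases and arrestins, which switch activated receptors off, 5 of 6 genes were above saline at 2 h, 1 at 24 h and 6 at 7 d. Gnas, the Gs subunit itself, stood at 420 FPKM (saline) against 436 FPKM (cocaine) at 2 h, 510 against 508 at 24 h, and 472 against 465 at 7 d.

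**Figure D3:**
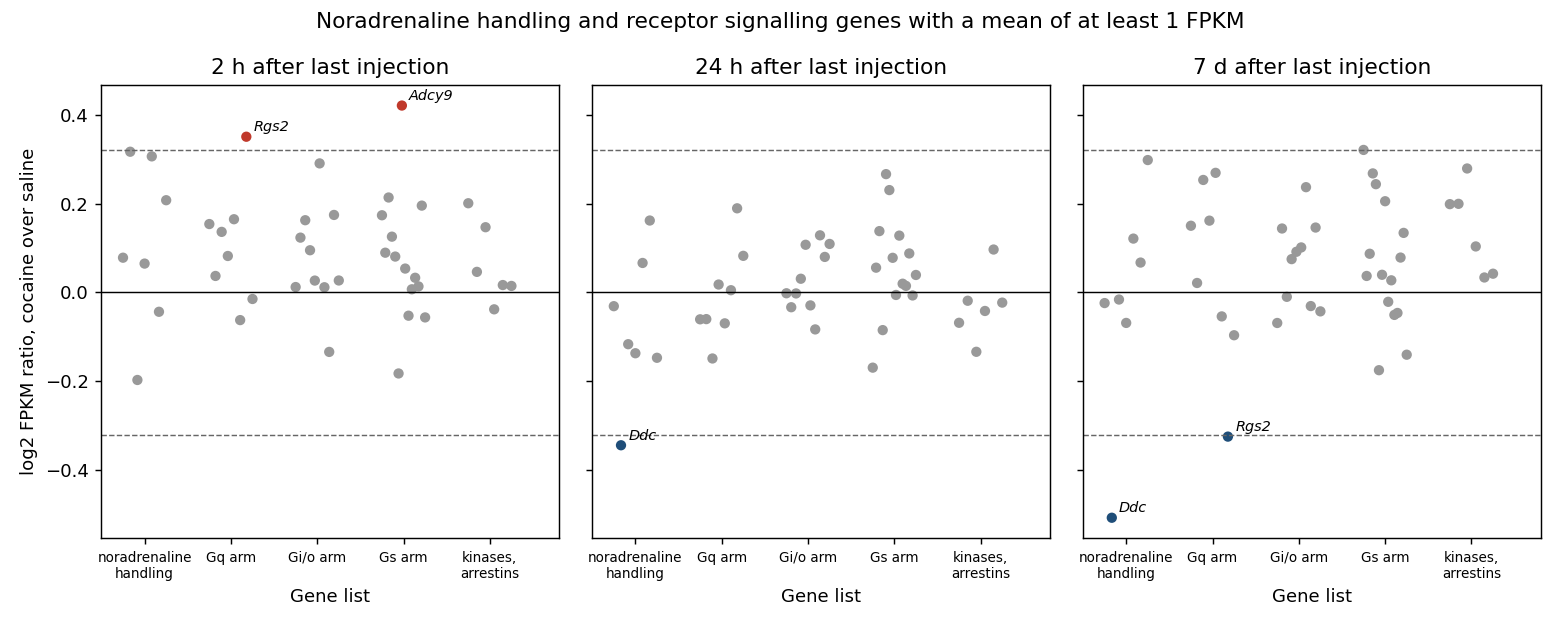
The log2 ratio of FPKM, cocaine over saline, for each gene of noradrenaline handling and receptor signalling with a mean of at least 1 FPKM, in 5 lists and at 3 times; dashed lines mark 25% higher and 20% lower, and points past them are named. Rgs2 and Adcy9 lie above the upper line at 2 h, Ddc below the lower line at 24 h, and Ddc and Rgs2 below it at 7 d.

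The cell bodies of noradrenaline neurons lie in the brainstem, and their defining genes Th, Dbh and Slc6a2 were each below 1 FPKM in every group. Th, tyrosine hydroxylase, stood at 0.293 FPKM (saline) against 0.112 FPKM (cocaine) at 2 h, 0.433 against 0.192 at 24 h, and 0.392 against 0.214 at 7 d. Dbh, which makes noradrenaline from dopamine, stood at 0.196 FPKM (saline) against 0.238 FPKM (cocaine) at 2 h. Its values were 0.142 against 0.239 at 24 h and 0.119 against 0.175 at 7 d. Slc6a2, the noradrenaline transporter, was listed at 0 in every saline group and at 7 d in cocaine. The rows of Th, Dbh and Slc6a2 carried the flag NOTEST at every time, so no direction is read from them.

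The tissue carried the markers of its label, with Slc17a7, the glutamate transporter of cortical projection neurons, at 466 to 532 FPKM and the striatal marker Drd2 at 0.146 to 0.234 FPKM. Markers of vascular cells, which carry alpha-1 receptors, were above saline in 5 of 5 genes at 2 h and at 7 d but in 3 of 5 at 24 h. They summed to 64.0 FPKM (saline) against 71.5 FPKM (cocaine) at 2 h, 83.7 against 81.8 at 24 h, and 67.4 against 76.7 at 7 d. Astrocyte markers were above saline in 5 of 5 genes at 2 h and at 7 d but in 0 of 5 at 24 h, and their sums were 319 against 351, 367 against 327, and 313 against 351 FPKM. Markers of cortical glutamatergic neurons were above saline in 4, 6 and 3 of 6 genes, with a median log2 difference of 0.025, 0.12 and 0.019. Oligodendrocyte markers were above saline in 0 of 5 genes at 2 h and 24 h and in 2 of 5 at 7 d. GABA neuron markers were above saline in 2, 3 and 2 of 5 genes. Their sums were 411 against 391, 474 against 465, and 452 against 414 FPKM. For the meninges it was 4, 0 and 2 of 4 genes, and for the thalamus 1 of 3, 2 of 3 and 2 of 2. Beside all these counts, 56.4%, 53.2% and 47.3% of all genes were above saline. Ttr, the choroid plexus transcript, stood at 1.90 FPKM (saline) against 0.461 FPKM (cocaine) at 2 h, 1.80 against 1.1 at 24 h, and 0.284 against 6.54 at 7 d, while the other 4 choroid plexus markers were below 1 FPKM in every group. The part of any of these cells in the receptor values was not tested.

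The ratios of all genes also moved with transcript length (Spearman's rho across genes 0.16 at 2 h, 0.085 at 24 h and 0.47 at 7 d, over the 84.5 to 85.1% of genes with a length, which are not independent replicates). With that trend taken out, the log2 differences of Adra2c were 0.40, 0.19 and 0.21, those of Adra2a 0.24, 0.21 and 0.084, and those of Adrb1 0.20, 0.25 and 0.26. All of them stayed above 0.

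For each of the 6 genes the 3 genes with the nearest pattern were taken by the Euclidean distance of their 3 log2 differences, among 13510 genes. The points are 3 comparisons only, so many genes come close, from 38 genes within a distance of 0.1 of Adra2c to 796 of Adra1b. Nearest to Adra2c were Fzd1, a Wnt receptor (distance 0.033), AW495222 and Tmem28. Nearest to Adrb1 were Adipor2, an adiponectin receptor (0.020), Urb1 and Tut1, and nearest to Adra2a were Lphn3, an adhesion receptor (0.025), Bcar1 and Cables1. Near Adra1d stood Tenm2 (0.017) and Hnrnph3. Adra1b stood closest to Anapc16 (0.0090), Emd and Urm1, and Adra1a to Zfp955a (0.036), Prkg1 and Abhd2.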

How the data were processed

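RNA from prefrontal cortex was sequenced in 12 libraries of 6 groups. Per the labels' processing notes, the authors trimmed the reads (Trimmomatic 0.32), aligned them with TopHat2 2.0.12 and ran Cuffdiff of Cufflinks 2.2.1 on the saline and cocaine libraries of each time point. The methods name cutadapt for trimming and another Cufflinks version. For every time point the authors deposited a table with 1 FPKM value per locus and group, pooled over the 2 libraries. The further columns hold the authors' own comparison (log2 fold change, test statistic, p value, q value and call) and were not used. The tables name the first group C and a time and the second the time alone, whereas C marks cocaine and CC control in the labels. The first value was taken as saline and the second as cocaine, as in the headings of the study's supplementary tables, and the direction of every ratio rests on this.

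Ratios are plain log2 ratios of FPKM, cocaine over saline, with a pseudocount of 0. A gene was counted where the mean of the 2 FPKM values was at least 1 and its ratio was at least 1.25 in either direction (25% higher or 20% lower in cocaine). Where a name stood on several rows the longest locus was used. With 1 pooled value per group no test was made, no error is given, and values per library were not analysed here. Transcript lengths were those of GENCODE M1 by symbol, and the length trend was the median ratio in 20 groups of genes. Positions are 1-based on GRCm38, the build of the processing notes, with which the RefSeq positions matched; the methods name mm9.

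Named were the 7 receptor genes, listed genes past the fold, Th, Dbh and Slc6a2, and for each receptor gene above 1 FPKM the 3 genes nearest in pattern, of which 1 is not reported here. Gnas, Adcy1, Adcy7, Slc29a4, Plcb2 and the marker genes were picked for the text once their values had been seen. The members and lists were chosen with earlier results of these data known. Python 3.11.15, numpy 2.4.6, pandas 2.3.3, scipy 1.17.1 and matplotlib 3.10.9 were used. The ratio and fold steps were run on planted ratios without noise, and the length step on a simulated trend. The other steps were not tested on simulated data. Alternatives were folds of 1.1 and 1.5, pseudocounts of 0.1 and 1, floors of 0.5, 5 and none, centring on the median, the row with the highest FPKM, and the length trend taken out.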

Additional observations from a re-analysis of the deposited data

Results flagged for a closer look

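Rgs2 was the 1 gene of the receptor and signalling lists above 1 FPKM that passed the size of difference in opposite directions at 2 times. Its log2 difference, cocaine minus saline, was 0.35 at 2 h and -0.33 at 7 d. The value at 7 d lay close to the limit and no longer passed it with a pseudocount of 1 (-0.30), after the table median was subtracted (-0.31) or with the length trend taken out (-0.32), while that at 2 h still passed it under each of these (0.33, 0.33 and 0.32). The difference between the times was not tested, since each value pools 2 libraries.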

How the results depend on the processing

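Only centring on the median and taking out the length trend could change the direction of a receptor gene's log2 difference. A pseudocount keeps the sign, and each receptor gene stood on 1 row per table. Under centring and the length trend the directions were kept, except that of Adra1d at 7 d. Its difference of -0.013 came to 0.061 with the length trend taken out. For Adra2b, below the floor, the length trend was not taken out. Adra2b at 24 h (-0.47) shrank to -0.20 and -0.033 with pseudocounts of 0.1 and 1. The number of receptor genes counted (1, 0 and 0 at 2 h, 24 h and 7 d) depended on the fold: at 1.1 it was 4, 3 and 3, at 1.5 it was 0 at 2 h, and with no floor it was 1 at 24 h, Adra2b. The number of signalling genes counted (2, 1 and 2) was 17, 9 and 19 at a fold of 1.1, 0 at each time at 1.5, and 6 at each time with no floor. With a pseudocount of 1 it was 0 at 24 h and 1 at 7 d, with a floor of 5 FPKM 0 and 1, and with the highest row 2 at 24 h, of which 1 (Adcy7) was higher. At 7 d the count stayed at 2 with the median subtracted or the length trend taken out, but Rgs2 was then replaced by a gene that was higher in cocaine (Adcy1 and Slc29a4 in turn), and a floor of 0.5 added Plcb2 as higher. The share of all genes counted in either direction, 13.1%, 8.21% and 13.9%, was 41.6%, 31.9% and 47.7% at a fold of 1.1, 4.39%, 3.32% and 3.84% at 1.5, and 37.0%, 33.8% and 38.1% with no floor; a pseudocount of 1 gave 7.87%, 4.97% and 8.73%, a floor of 5 gave 7.08% and 4.14% at 2 h and 24 h, and taking out the length trend gave 5.27% and 7.43% at 24 h and 7 d. Where not given by the alternative's own construction, the cause was not tested. No paired analysis was possible because the tables give 1 value per group, pooled over its libraries; for the same reason leaving out each library was not run. The paper gives a range of reads per replicate, but not the depth behind each group's value. Low rows such as Adra2b are therefore the least certain.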
